A study of Mus musculus with 12 samples.

Results

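The genes described here encode the RNA-binding proteins and core factors that choose and recognize splice sites. They are the 124 probe sets, of 22690 on the array, whose only annotated gene symbol begins with Srsf, Hnrnp, Sf3a, Sf3b or Luc7l or is Ddx5, Ddx17, Tra2a, Tra2b, U2af1 or U2af2. These probe sets read 45 genes, of 12393 genes that the annotation names singly. A probe set is a group of short oligonucleotides that reads a transcript, and 32 of the 45 genes are read by 2 or more of them, called sister probe sets here, up to 7 for Hnrnpab. Srsf7, which would fall under the same rule, is named by no such probe set.

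RNA came from frozen sections of 12 untreated salivary tumors of adult MMTV-ras transgenic mice, in which the mouse mammary tumor virus promoter drives an activated Hras gene in all groups. The genotypes, of 4 numbered tumors each, were p53+/+ (WT1 to WT4), p53-/- (KO1 to KO4) and p53R172H/R172H (MT1 to MT4), the last carrying a point mutation in the DNA-binding domain at the mouse p53 locus. The mice were a mixed cross of BALB/c and C57BL/6, and the R172H allele was crossed into that colony for the study. Whether any 2 tumors shared a mouse is not given, the p-values cover no more than the spread seen among these tumors, and 4 arrays per genotype limit the precision. Sections hold several cell types, and in such bulk samples fewer cells of a type and less RNA per cell cannot be told apart. All levels are log2 values that by the study's methods were made by RMA (background correction, quantile normalization and summary of the probes), and all differences are on that log2 scale with their standard error (SE). Differences were tested with limma over 22626 probe sets that are not array controls. A probe set is said to have risen or fallen only where the Benjamini-Hochberg adjusted p over all of them was under 0.05. Counts are of probe sets, so a gene with sisters can enter a count more than once. Levels of different probe sets are not comparable with each other, because each binds its transcript with its own strength.

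SR proteins carry serine- and arginine-rich tails and bind exonic enhancers, where they draw the splicing machinery to nearby sites. The hnRNPs coat nascent transcripts and often block sites that SR proteins favor, and the balance of both families sets which exons are kept. U2AF reads the 3' splice site, SF3A and SF3B hold U2 snRNP on the branch site, LUC7-like proteins work with U1 snRNP at the 5' splice site, and the DEAD-box helicases Ddx5 and Ddx17 remodel RNA and also act as transcriptional coregulators, Ddx5 with p53 among others.

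Luc7l2, Luc7l3 and Srsf2 gave 6 of the 7 calls between WT and KO tumors, and the sequence before the RefSeq start of each of these genes is shown because the LUC7-like genes moved one way and Srsf2 the other. Each run is the 250 bases before the start given by RefSeq on GRCm38.p6, 5' to 3' on the gene's strand. Capitals mark every match, on either strand, to the motifs searched. The GC box was searched as GGGCGG and the CCAAT box by its name. The E box was searched as CACGTG, and the TATA box as TATAAA.
Luc7l2: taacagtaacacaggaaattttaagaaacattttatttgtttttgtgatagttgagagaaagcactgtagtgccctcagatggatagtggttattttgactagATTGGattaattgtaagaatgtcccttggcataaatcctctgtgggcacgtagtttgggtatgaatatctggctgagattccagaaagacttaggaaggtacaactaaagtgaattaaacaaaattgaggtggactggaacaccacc
Luc7l3: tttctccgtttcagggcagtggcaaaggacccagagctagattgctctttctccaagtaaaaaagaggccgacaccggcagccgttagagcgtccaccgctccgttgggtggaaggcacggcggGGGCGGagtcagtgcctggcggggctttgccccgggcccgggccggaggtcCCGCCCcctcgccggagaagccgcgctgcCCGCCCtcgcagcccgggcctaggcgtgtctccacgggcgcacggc
Srsf2: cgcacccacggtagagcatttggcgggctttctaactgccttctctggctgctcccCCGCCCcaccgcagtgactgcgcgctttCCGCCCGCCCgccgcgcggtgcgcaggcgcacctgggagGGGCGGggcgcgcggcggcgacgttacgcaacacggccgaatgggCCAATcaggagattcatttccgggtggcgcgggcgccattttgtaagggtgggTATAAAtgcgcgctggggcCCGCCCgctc
The Luc7l2 run lies at chr6:38555473-38555722 on the plus strand, the Luc7l3 run at chr11:94321964-94322213 on the minus strand and the Srsf2 run at chr11:116853095-116853344 on the minus strand. All 3 lie inside the span that RefSeq gives the whole gene, so longer transcripts start further upstream. The Luc7l3 and Srsf2 runs are each 69.6% G and C and hold 3 and 5 GC box matches, of which some in Srsf2 overlap, while the Luc7l2 run is 37.2% G and C, holds none and has 1 CCAAT match. The Srsf2 run also holds 1 CCAAT and 1 TATAAA match. Of 27025 promoters of this length, 32.9% hold the GC box, 34.5% the CCAAT box, 6.05% this E box and 13% this TATA box. Of the 39 promoters of these splicing genes that were found in the RefSeq table, 28 hold the GC box, 19 the CCAAT box, 1 the E box and 4 the TATA box. These matches are letters in a window and no binding was measured.

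The splicing genes were well read in these tumors. Of their 124 probe sets 117 (94.4%) exceeded the median of their array in at least 4 tumors, against 12169 of the 22626 tested (53.8%). All 28 probe sets of SR proteins, 3 of transformer-2 proteins, 2 of U2AF, 10 of LUC7-like proteins and 9 of DEAD-box helicases did so, as did 46 of 50 of hnRNPs and 19 of 22 of SF3A and SF3B.

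Several facts of the arrays touch the results below. The poly-A controls, bacterial RNAs that can be added before labeling, averaged between 10.38 and 10.56 in MT1 to MT3. MT4 and all WT and KO tumors had 3.98 to 4.23. The bacterial hybridization controls were at 10.04 to 10.15 in WT1, KO1, KO4 and MT4 and at 8.88 to 9.72 in the other 8. 18S ribosomal RNA was at 8.90 to 9.33 in WT1 to WT3 and at 6.41 to 8.03 in the other 9, and the actin 3' minus 5' difference was 1.05 in KO4 and 0.17 to 0.58 elsewhere. That of Gapdh was 0.44 in KO4 and -0.15 to 0.12 elsewhere. The first of 2 Trp53 probe sets was at 7.38 to 8.01 in WT, 5.85 to 6.36 in KO and 7.88 to 9.03 in MT tumors, and the second at 8.02 to 8.53, 6.37 to 6.89 and 8.18 to 9.29, so the KO tumors lay lowest in both. Within the MT group MT4 was at 7.88 and 8.18, inside the WT ranges, and MT1 to MT3 were at 8.80 to 9.03 and 9.13 to 9.29. Among marker lists, the summed linear level of 9 measured acinar genes, in log2, was 14.92 to 15.63 in WT, 14.05 to 14.72 in KO and 14.58 to 15.09 in MT tumors. That of 8 macrophage genes was 12.95 to 13.31, 11.91 to 12.45 and 11.63 to 12.96, and that of 8 luminal epithelial genes 13.24 to 14.73, 14.58 to 14.70 and 14.38 to 14.67. No gene of these 3 lists lay below the array median in all tumors. WT1 stood apart in B and plasma cell genes, at 14.11 against 11.31 to 12.89 in the other tumors, and in T and NK cell genes, at 10.07 against 8.41 to 8.88, of which 2 of 7 measured lay below the array median in all tumors.

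Between WT and KO tumors, Luc7l2 and Luc7l3 were lower and Srsf2 and Sf3b5 higher in tumors with wild-type p53. Of the 124 probe sets 3 were higher and 4 lower in WT tumors, from 4 of the 45 genes, against a background of 2.64% of all tested probe sets higher and 1.94% lower. Luc7l3 and Srsf2 are annotated on chromosome 11, Luc7l2 on 6 and Sf3b5 on 10. Whether any was inherited together with the p53 allele was not tested. At an unadjusted p under 0.05 there were 11 higher and 14 lower, 20.2% of the 124 against 23.9% of all, and the groups of tumors did not overlap in 6 probe sets that were higher (4.84%) and 17 that were lower (13.7%) in WT, against 8.37% and 6.10% of all tested. The median difference over the 124 was -0.06, and over all tested 0.02. The LUC7-like genes gave 4 of 10 probe sets called, all lower, with a median of -0.56. The SR proteins gave 2 of 28 called, both higher, and SF3A and SF3B 1 of 22, while none passed among 50 of hnRNPs, 9 of DEAD-box helicases, 3 of transformer-2 proteins and 2 of U2AF, where 6, 1, 1 and 0 had an unadjusted p under 0.05 in limma. The count rested on single tumors, falling to 0 without WT1 (22 at an unadjusted p under 0.05) and to 1 without WT3 and rising to 9 without WT2, where 1.19%, 0.866% and 4.29% of all probe sets passed. It was 16 with array weights, which called 14.5% of all probe sets, and none of the 45 genes passed when each was read through its brightest probe set alone, where 4.49% of all genes passed. Acinar, macrophage and adipocyte marker levels (the last at 9.18 to 10.43 in WT and 8.71 to 8.95 in KO tumors) and those of T and NK cells, at 8.67 to 10.07 and 8.41 to 8.66, did not overlap between WT and KO tumors. Of 6 adipocyte genes measured, 4 lay below the array median in all tumors. The part of these marker levels in this comparison was not tested.

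**Figure D1:**
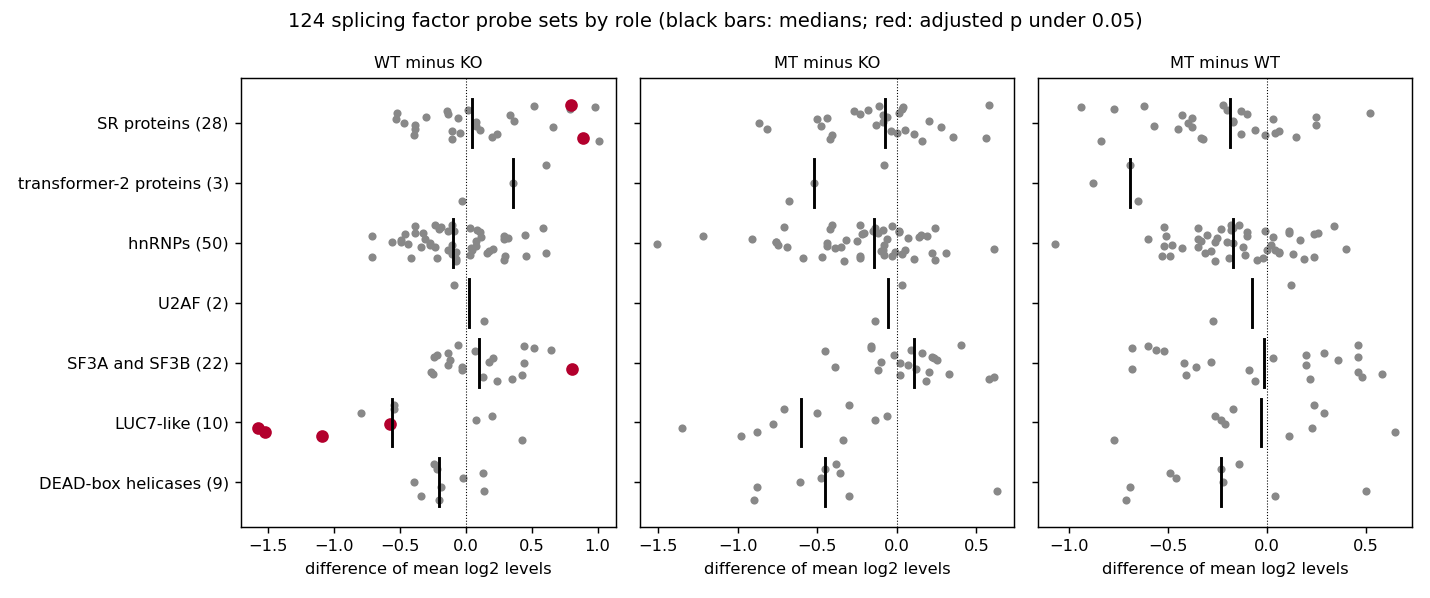
Differences of mean log2 level for the 124 probe sets (1 point each) in 3 comparisons of genotypes, by role, with the number of probe sets in parentheses, black bars for the median of a role and red points for an adjusted p under 0.05 in limma. The 7 red points all lie in WT minus KO, where the LUC7-like probe sets have a median of -0.56, and each comparison has its own horizontal scale.

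Luc7l2, a mammalian relative of the yeast U1 snRNP protein Luc7, had the largest difference and was read by 5 probe sets. Probe set 1436766_at was at 8.53, 8.09, 8.79 and 8.48 in WT1 to WT4, at 9.71, 9.52, 10.04 and 10.92 in KO1 to KO4 and at 8.58, 8.35, 9.31 and 8.56 in MT1 to MT4. Every KO tumor lay above every WT and MT tumor, with KO4 the highest. The WT mean minus the KO mean came to -1.57 (SE 0.30, adjusted p = 0.0198 in limma). Probe set 1436767_at was at 7.52, 6.94, 7.81 and 8.09 in WT tumors, at 8.80, 8.34, 9.27 and 10.05 in KO tumors and at 8.28, 8.32, 8.65 and 7.69 in MT tumors. Again all WT tumors lay below all KO tumors, but 3 of the 4 MT tumors now lay above the WT tumors, and MT3 reached into the KO range. The difference was -1.52 (SE 0.36, adjusted p = 0.0382 in limma) and shrank to -1.21 without KO4, where it no longer passed. Probe set 1436165_at moved less, from 8.40 to 8.61 in WT tumors to 8.83 to 9.32 in KO tumors, and was at 8.42, 8.23, 8.22 and 8.39 in MT tumors, all below the KO tumors. WT minus KO was -0.57 here (SE 0.12, adjusted p = 0.0283 in limma). The remaining sisters, 1427087_at and 1423251_at, had differences of -0.79 (SE 0.24, adjusted p = 0.0768 in limma) and -0.54 (SE 0.24, adjusted p = 0.192 in limma), so all 5 had the same sign and 3 passed. KO4 was the highest KO tumor in all 5. It also held the highest actin and Gapdh 3' minus 5' differences, at 1.05 and 0.44, and their part here was not tested.

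Luc7l3, a LUC7-like protein with an SR-like tail, was read by 2 probe sets. Probe set 1451485_at was at 8.64, 7.48, 8.33 and 8.96 in WT tumors, at 9.36, 9.64, 9.57 and 9.20 in KO tumors and at 8.41, 8.50, 8.21 and 8.74 in MT tumors. The KO tumors were tightly grouped and lay above all others, and the WT tumors were spread, with WT2 far below the rest. WT minus KO came to -1.09 (SE 0.26, adjusted p = 0.0417 in limma), close to the threshold and lost in 12 of 22 other settings with its sign kept in all. The sister 1424802_a_at differed by -0.54 (SE 0.19, adjusted p = 0.118 in limma). Luc7l, the third gene of the family, did not follow: its 3 probe sets had WT minus KO differences of 0.20, 0.08 and 0.43, none of which passed.

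**Figure D2:**
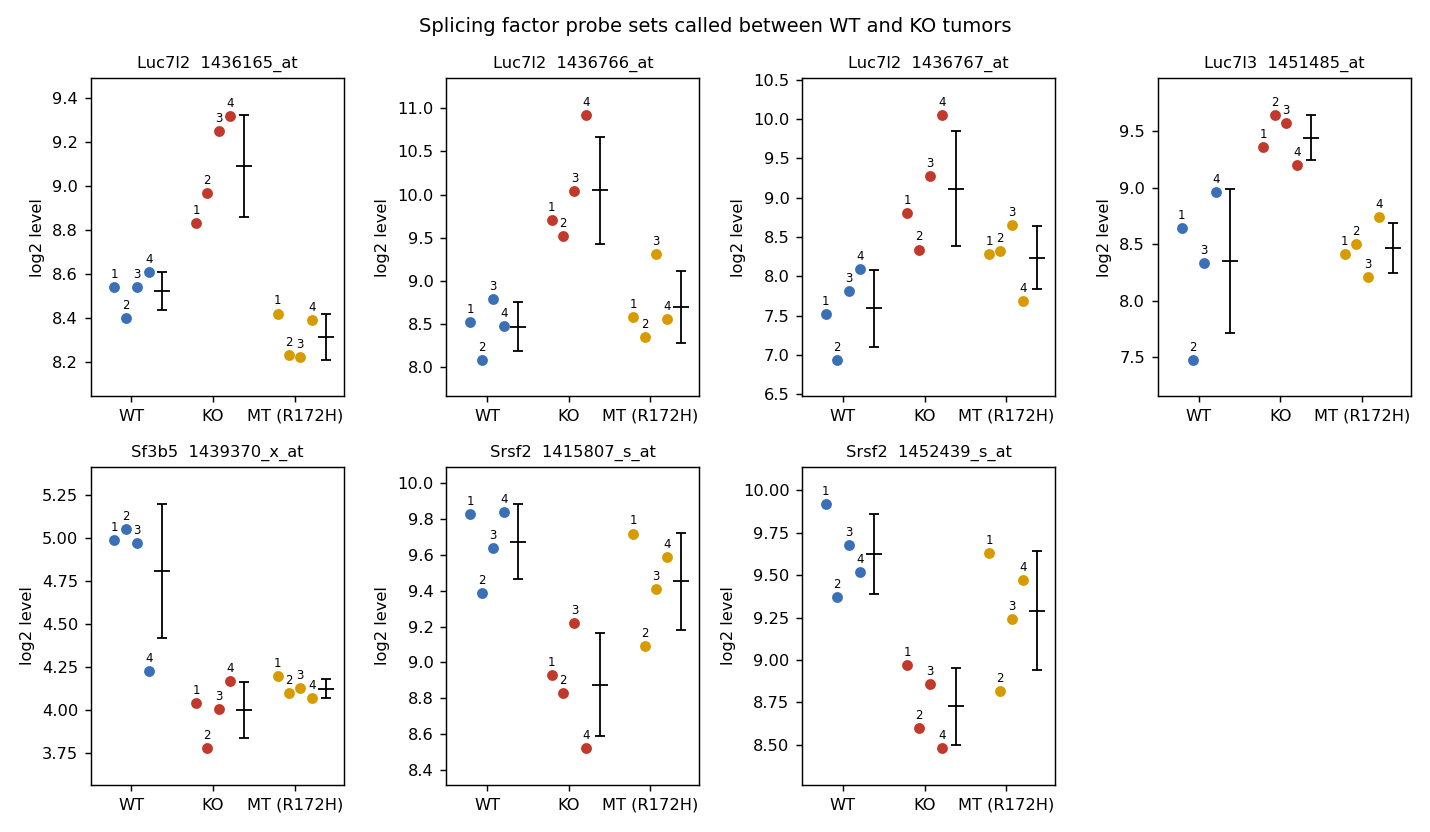
Log2 level of the 7 probe sets called between WT and KO tumors, 1 point for each tumor with its number beside it, and the mean and SD of each genotype (n = 4) in black beside the points. The KO points of Luc7l2 and Luc7l3 lie above all WT points and those of Srsf2 and Sf3b5 below them, and the vertical scale differs between panels and does not start at 0.

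Srsf2, an SR protein that activates exon inclusion and can also aid transcription elongation, was higher in WT tumors in 2 of its 4 probe sets. Probe set 1452439_s_at was at 9.92, 9.37, 9.68 and 9.52 in WT tumors, at 8.97, 8.60, 8.86 and 8.48 in KO tumors and at 9.63, 8.82, 9.24 and 9.47 in MT tumors. The WT tumors all lay above the KO tumors, and the MT tumors reached into both ranges. The difference was 0.89 (SE 0.19, adjusted p = 0.0266 in limma). Probe set 1415807_s_at was at 9.83, 9.39, 9.64 and 9.84 in WT, 8.93, 8.83, 9.22 and 8.52 in KO and 9.72, 9.09, 9.41 and 9.59 in MT tumors. WT and KO tumors did not overlap here either, with a difference of 0.80 (SE 0.18, adjusted p = 0.0327 in limma). The sisters 1427504_s_at and 1427816_at differed by 0.37 (SE 0.18, adjusted p = 0.243 in limma) and 0.08 (SE 0.14, adjusted p = 0.750 in limma). On the RefSeq map Srsf2 overlaps the gene Mfsd11, and a probe set whose name ends in s_at can bind transcripts of more than 1 gene, so the gene behind the s_at values is less certain.

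Srsf3, the smallest SR protein, had 6 probe sets that were all on the WT side of 0 without any passing. Probe set 1454993_a_at was at 10.29, 9.27, 9.99 and 9.75 in WT tumors, at 9.32, 8.07, 8.75 and 9.14 in KO tumors and at 9.0, 8.41, 8.77 and 9.75 in MT tumors. WT2 lay below KO1, so the groups touched, and the difference was 1.01 (SE 0.34, adjusted p = 0.102 in limma). Its sisters had WT minus KO differences of 0.98, 0.79, 0.66, 0.52 and 0.11, and the smallest adjusted p among them in limma was 0.0615, for 1434512_x_at. Srsf9, read by 1 probe set, was at 9.77 to 10.05 in WT and at 10.36 to 10.61 in KO tumors, with a difference of -0.52 (SE 0.15, adjusted p = 0.0755 in limma) although the tumors did not overlap. For Srsf1, the first known member of the family and a splicing factor with oncogenic activity, the 6 probe sets had differences from -0.47 to 0.20. Srsf5 (-0.30), Srsf4 (-0.04) and the 3 probe sets of Srsf6 (-0.14 to 0.02) gave no call, nor did those of Srsf10 (-0.13 to 0.34) and Srsf11 (-0.53 and -0.39).

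Among the core factors of the 3' splice site, Sf3b5, a small subunit of SF3B, had 1 of 2 probe sets called. Probe set 1439370_x_at was at 4.99, 5.05, 4.97 and 4.23 in WT tumors, at 4.04, 3.78, 4.01 and 4.17 in KO tumors and at 4.20, 4.10, 4.13 and 4.07 in MT tumors. WT1, WT2 and WT3 lay apart from all others, while WT4 lay just above the highest KO tumor. The difference was 0.81 (SE 0.17, adjusted p = 0.0266 in limma), on a probe set so dim that a filter at the array median removes it. WT1 to WT3 also held the highest 18S ribosomal RNA, at 8.9 to 9.33 against 7.51 in WT4, and its part here was not tested. The sister 1451185_at, which is bright, was at 9.16 to 9.50 in WT and 8.45 to 9.14 in KO tumors and differed by 0.43 (SE 0.16, adjusted p = 0.132 in limma). Sf3b1, the subunit that contacts the branch site and the one most often mutated in blood cancers, had differences of 0.65, 0.07 and -0.03 in its 3 probe sets, without a call. U2af1 and U2af2, the small and large subunits of U2AF, differed by 0.14 and -0.09 (SE 0.19 and 0.14, adjusted p = 0.702 and 0.757 in limma).

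The hnRNPs, the largest group with 18 genes, held no call between WT and KO tumors, with differences from -0.71 to 0.61. The closest to the threshold was Hnrnpa2b1, a repressor of exons that also sorts RNA for transport, in probe set 1433829_a_at. It was at 10.83, 10.78, 11.07 and 10.73 in WT tumors, at 11.29, 11.11, 11.40 and 11.57 in KO tumors and at 10.74, 10.26, 10.85 and 10.51 in MT tumors. KO tumors lay above all others, and WT minus KO came to -0.49 (SE 0.15, adjusted p = 0.0787 in limma). The other 3 Hnrnpa2b1 probe sets differed by -0.20, -0.56 and -0.27. Hnrnpa1, the best-known exon repressor, had differences of 0.08, 0.46 and -0.71, Hnrnpc, which packages long introns, 0.59 and 0.29, and Hnrnpk, a poly-C binding protein linked to the p53 response, -0.13 to 0.11 in 4 probe sets. Hnrnpu, a nuclear scaffold protein, ranged from -0.44 to 0.18 in 5 probe sets.

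The transformer-2 proteins bind enhancers together with SR proteins, and Tra2b differed by 0.61 (SE 0.27, adjusted p = 0.194 in limma) and 0.36, and Tra2a by -0.03. The probe sets of Ddx5 lay between -0.24 and 0.13 and those of Ddx17 between -0.39 and 0.14. The lowest adjusted p of these 9 probe sets in limma was 0.126.

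The rest of the splicing machinery, read through 1 probe set per gene from lists of other spliceosomal genes, held 2 calls between WT and KO tumors. Pcbp4, a poly-C binding protein induced by p53 in other cells, differed by -1.32 (SE 0.25, adjusted p = 0.0199 in limma) in the list of 36 measured other splicing regulators. Ddx42, a helicase that works with SF3B, differed by -0.63 (SE 0.15, adjusted p = 0.0404 in limma) among 17 helicases and step factors. All genes read this way gave 333 higher and 234 lower of 12393. None of 19 snRNP core and tri-snRNP genes, 10 SR protein kinases and import factors and 11 branch site and exon junction factors passed in limma, where 6, 2 and 2 had an unadjusted p under 0.05. The median differences of the 5 lists were -0.20, -0.08, -0.17, -0.26 and -0.23 in this order, against 0.01 over all genes read the same way. No gene of the 5 lists passed in the comparisons with MT tumors, where 13 for MT minus KO and 13 for MT minus WT of the 93 measured had an unadjusted p under 0.05 in limma, against 948 and 2316 of the 12393 genes. For WT minus KO these numbers were 22 of 93 and 2959 of 12393.

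Between MT and KO tumors no difference passed. The mean of the R172H tumors was below that of tumors without p53 for most LUC7-like, DEAD-box and transformer-2 probe sets. The background here was 0.00884% of all tested probe sets higher and 0.00% lower, and 0 of 124 passed in either direction in limma. At an unadjusted p under 0.05 there were 5 higher and 25 lower, 24.2% of the 124 against 9.58% of all, and without overlap 14 probe sets (11.3%) were lower and 1 (0.806%) higher in MT, against 1.97% and 2.88% of all tested. The median over the 124 was -0.12, and over all tested 0.02. With a block for the poly-A controls, where the value rests on MT4, these medians were -0.03 and -0.01. Read through the brightest probe set alone, 8 of 45 genes had an unadjusted p under 0.05 in limma, against 948 of 12393 genes. All 10 LUC7-like probe sets, of 3 genes, were below 0, with a median of -0.60. So were all 3 of transformer-2 proteins, of 2 genes, and 8 of 9 of DEAD-box helicases, of 2 genes. By contrast 15 of 22 of SF3A and SF3B, of 9 genes, were above 0. With the block the 3 transformer-2 probe sets were at -0.04, 0.41 and 0.14. Those of Ddx5 then ranged from -0.52 to 0.20 and those of Ddx17 from -0.64 to 0.26. Those of Luc7l2 ranged from -1.49 to -0.70, those of Luc7l from -0.17 to 0.14, and those of Luc7l3 were at -0.81 and -0.70. MT1 to MT3 differ from all KO tumors also in the poly-A controls, and for these tumors the R172H allele and whatever set those controls apart cannot be told apart.

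The smallest p belonged to Luc7l2 1436165_at, given above by tumor, with an MT minus KO difference of -0.78 (SE 0.12, adjusted p = 0.109 in limma). MT4, which shares low poly-A controls with the KO tumors, was at 8.39 there, below the lowest KO tumor at 8.83. Luc7l2 1436766_at differed by -1.35 (SE 0.30, adjusted p = 0.20 in limma) and Luc7l3 1424802_a_at by -0.71 (SE 0.19, adjusted p = 0.276 in limma). In the latter the MT tumors were at 10.24, 10.09, 10.08 and 10.00 and the KO tumors at 10.57 to 11.08, without overlap.

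Among hnRNPs, Hnrnpa2b1 1433829_a_at differed by -0.76 (SE 0.15, adjusted p = 0.150 in limma) and its sister 1433830_at by -0.76 (SE 0.20, adjusted p = 0.271 in limma), and in both every MT tumor, MT4 included, lay below every KO tumor. Hnrnpab 1426114_at, a probe set of an hnRNP that also binds promoters, was at 9.52, 9.91, 9.87 and 10.44 in MT tumors and at 11.07, 11.53, 11.02 and 11.02 in KO tumors. The MT tumors lay wholly below, with a difference of -1.22 (SE 0.31, adjusted p = 0.252 in limma). Srsf1 1428099_a_at was at 10.70, 10.29, 10.53 and 11.32 in MT and at 11.44 to 11.76 in KO tumors. Its difference was -0.87 (SE 0.22, adjusted p = 0.252 in limma), with MT4 close to the KO tumors, and that of its sister 1434972_x_at was -0.82 (SE 0.22, adjusted p = 0.276 in limma). Ddx17 1437773_x_at differed by -0.61 (SE 0.14, adjusted p = 0.229 in limma), with MT tumors at 10.78, 11.02, 10.60 and 11.30 and KO tumors at 11.39 to 11.69.

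Leaving out MT4 changed this comparison the most. Without it 10 probe sets passed, 2 higher and 8 lower in MT, as did 1.04% of all, and 6 of the 8 are the x_at probe sets of Srsf1, Hnrnph1, Ddx17, Hnrnpab and Ddx5, of which Ddx5 gave 2. A name ending in x_at marks a set with some probes that can also bind other transcripts. Ddx5 1438371_x_at then differed by -1.24 (SE 0.12, adjusted p = 0.00272 in limma) and 1454793_x_at by -1.27 (SE 0.15, adjusted p = 0.00785 in limma). With a block for the poly-A controls, where the value rests on MT4, the same probe sets differed by 0.20 and 0.19, so their direction turned. The 2 that were higher in MT without MT4 were Sf3a2 1455546_s_at and Sf3b2 1456040_at, both at 0.84, and with the block they were at -0.10 and -0.20. Luc7l2 1436165_at stayed nearly the same, at -0.80 without MT4 and -0.70 with the block, although with the block its adjusted p in limma was 0.520. Among the genes of the 8 lower probe sets, Srsf1, Hnrnph1, Hnrnpab and Ddx5 are annotated on chromosome 11, Ddx17 on 15 and Luc7l2 on 6. Whether any was inherited together with the R172H allele was not tested.

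Between MT and WT tumors 0 of 124 probe sets passed in limma, against a background of 0.177% of all tested probe sets higher and 0.190% lower. At an unadjusted p under 0.05 there were 6 higher and 17 lower in MT, 18.5% of the 124 against 19.4% of all. The median over the 124 was -0.17, and over all tested -0.01. With the poly-A block, where the value rests on MT4, these medians were 0.03 and -0.04. Sf3b5 1439370_x_at had the lowest p, with an MT minus WT difference of -0.68 (SE 0.17, adjusted p = 0.0858 in limma). Srsf9 was higher in MT, at 10.76, 10.22, 10.77 and 10.16, than in WT tumors, at 10.05, 9.77, 10.02 and 9.97, without overlap, by 0.52 (SE 0.15, adjusted p = 0.122 in limma). MT and KO tumors overlapped for Srsf9, with an MT minus KO difference of 0.01 (SE 0.15). Sf3a2 1450576_a_at, Sf3b4 1424619_at and Sf3a1 1449333_at, subunits of the U2 snRNP, differed by 0.58, 0.46 and 0.46, with adjusted p = 0.135, 0.146 and 0.169 in limma. Tra2b 1427432_a_at differed by -0.88 (SE 0.31, adjusted p = 0.166 in limma), Srsf3 1416152_a_at by -0.77 (SE 0.29, adjusted p = 0.189 in limma) and Ddx5 1433809_at by -0.49 (SE 0.19, adjusted p = 0.196 in limma). MT1 to MT3 differ from all WT tumors, too, in the poly-A controls, and for them the allele and those controls cannot be told apart. With the poly-A block the differences of these 8 probe sets, in the order given, were -0.74, 0.21, 0.25, 0.06, 0.10, -0.22, -0.34 and -0.30, and none passed. The WT tumors enter both this comparison and that with KO tumors, so the values of a gene in both are not independent. The count was 44, of which 37 lower, with array weights, which called 22.0% of all probe sets, and 7 without MT4, where 3.54% of all passed.

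Sister probe sets of 1 gene were compared with each other. In each of the 32 genes with sisters, the probe set with the highest mean over the 12 tumors was the reference, and the difference of each other probe set minus that of the reference was tested in limma over 7987 such pairs on the array, 79 of them of splicing genes. Between WT and KO tumors 5 of 79 pairs passed, against a background of 6.21% of all pairs. For MT minus KO 10 of 79 passed against 6.85%, and for MT minus WT 0 against 1.23%, with 15 at an unadjusted p under 0.05. With dim probe sets left out, 13 of 72 pairs passed for MT minus KO, against 20.2% of all pairs. For WT minus KO 4 of 72 then passed, against 4.74%. All probe sets of a gene had the same sign in 18 of the 32 genes (56.2%) for WT minus KO, against 62.6% of 4956 genes on the array with sisters. The shares were 53.1% against 51.6% for MT minus KO and 59.4% against 58.8% for MT minus WT. A gene with more sisters less easily keeps 1 sign. The 32 genes held 79 pairs and the 4956 genes 7987, so these shares are not matched for the number of sisters.

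For WT minus KO the pairs that passed lay in Luc7l2, Hnrnpa1, Srsf2 and Srsf1. Luc7l2 1436766_at and 1436767_at were lower in WT tumors relative to the reference 1423251_at, by -1.03 (adjusted p = 0.0131 in limma) and -0.98 (adjusted p = 0.0433 in limma). Hnrnpa1 1455740_at, a dim probe set at 4.93 to 5.98 in WT and 5.29 to 6.84 in KO tumors, went against its reference 1455305_x_at by -1.18 (adjusted p = 0.0254 in limma). The WT minus KO difference of Srsf2 1452439_s_at exceeded that of 1427504_s_at by 0.52 (adjusted p = 0.0282 in limma). That of Srsf1 1430982_at exceeded that of 1428099_a_at by 0.56 (adjusted p = 0.0404 in limma). The widest ranges of WT minus KO among sisters were 1.18 in Hnrnpa1, 1.03 in Luc7l2, 0.92 in Hnrnpab and 0.90 in Srsf3.

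For MT minus KO the 10 pairs lay in 8 genes. The largest shifts against the reference were -1.36 in Hnrnpu (1434390_at, adjusted p = 0.0365 in limma), 1.22 in Srsf1 (1452430_s_at, adjusted p = 0.0254 in limma), 1.21 in Hnrnpab (1448144_at, adjusted p = 0.0417 in limma) and -1.05 in Luc7l2 (1436766_at, adjusted p = 0.0253 in limma). The others were 0.96 in Sf3b2, 0.93 in Ddx17, 0.74 in a further Srsf1 pair, 0.71 in a further Hnrnpab pair, 0.70 in Hnrnpr and 0.44 in Tra2b. With the poly-A block all 10 kept their sign and none passed. The value stayed at 0.90 in Ddx17 and was -0.78 in Hnrnpu and -0.62 in Luc7l2, but fell to 0.16 in Sf3b2, to 0.15 in Hnrnpab 1448144_at and to 0.12 in Hnrnpr. The count of 10 was 0 without MT1, MT2, MT3 or KO4, each left out alone, when 0, 1, 1 and 29 of all 7987 pairs passed, and 24 without MT4, when 18.6% of all did.

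**Figure D3:**
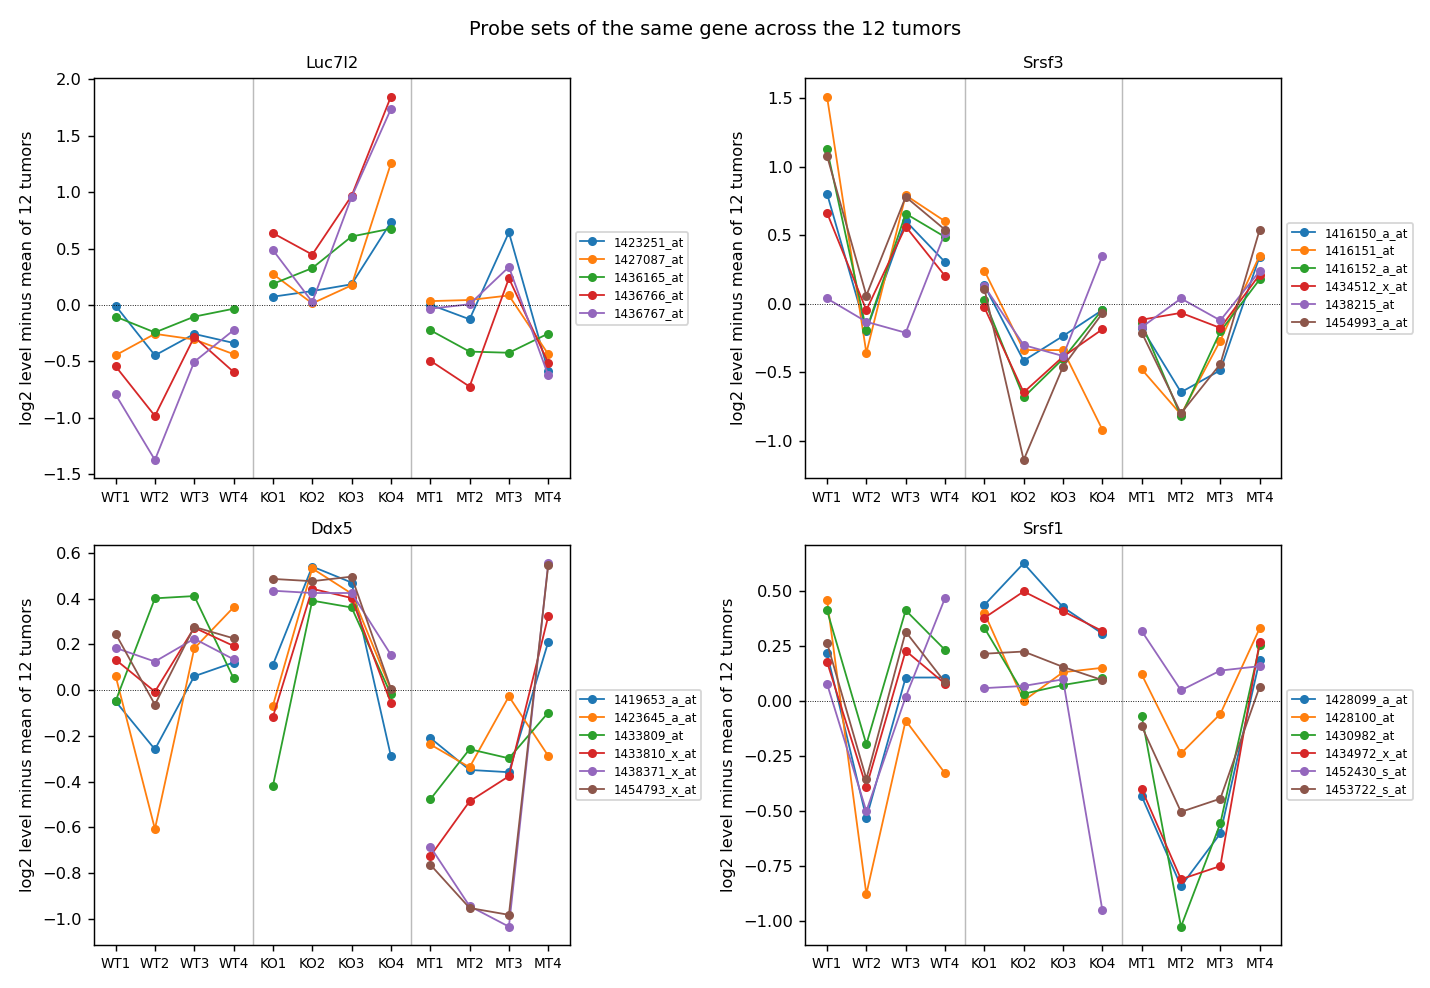
Log2 level minus its mean over the 12 tumors for every probe set of Luc7l2, Srsf3, Ddx5 and Srsf1, 1 point per tumor and 1 color per probe set, with vertical scales that differ between panels. Lines join tumors of 1 genotype to guide the eye and imply no order. Ddx5 1438371_x_at and 1454793_x_at part from their a_at sisters in MT1 to MT3, and 1452430_s_at of Srsf1 parts from its sisters in KO4.

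The sisters of Ddx5 also differed in MT1 to MT3, although no pair of this gene passed, with adjusted p = 0.119 in limma as the lowest for MT minus KO. Probe set 1438371_x_at was at 11.53 to 11.63 in WT tumors, 11.56 to 11.84 in KO tumors and 10.72, 10.46, 10.37 and 11.96 in MT1 to MT4. MT1, MT2 and MT3 lay far below every other tumor, and MT4 was the highest of the 12. The sister 1423645_a_at was at 10.10 to 11.07 in WT tumors, 10.64 to 11.24 in KO tumors and 10.47, 10.37, 10.68 and 10.42 in MT tumors. There MT4 lay within the range of the other MT tumors, and the 3 genotypes overlapped. The other a_at set, 1419653_a_at, was at 11.74, 11.60, 11.59 and 12.16 in MT tumors, within the 11.66 to 12.49 of KO tumors only for MT1 and MT4. Ddx5 overlaps Cep95 on the RefSeq map, and Ddx17 overlaps Kdelr3.

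In Srsf1 the sisters parted in MT1 to MT3 and also in KO4. Probe set 1452430_s_at was at 10.53, 10.26, 10.35 and 10.37 in MT tumors and at 10.27, 10.28, 10.31 and 9.26 in KO tumors. KO4 alone lay low, where the reference 1428099_a_at was at 11.57, 11.76, 11.56 and 11.44 in KO tumors. KO4 is also the tumor with the actin 3' minus 5' difference of 1.05, and the part of this in the parting of the sisters was not tested.

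MT4 stood apart from the other R172H tumors in these genes. It differed from the mean of MT1 to MT3 by more than 1 in 13 of 124 probe sets (10.5%), 11 higher and 2 lower in MT4, against a background of 6.32% of all tested probe sets. It lay outside the range of MT1 to MT3 in 92 of 124 (74.2%), above in 59 and below in 33, against a background of 63.1%. The same count past 1 was 0 for MT1, 3 for MT2 and 0 for MT3, each against the remaining MT tumors, where 2.34%, 4.08% and 1.88% of all tested probe sets were past 1. As 1 tumor against 3, these are values without a test.

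**Figure D4:**
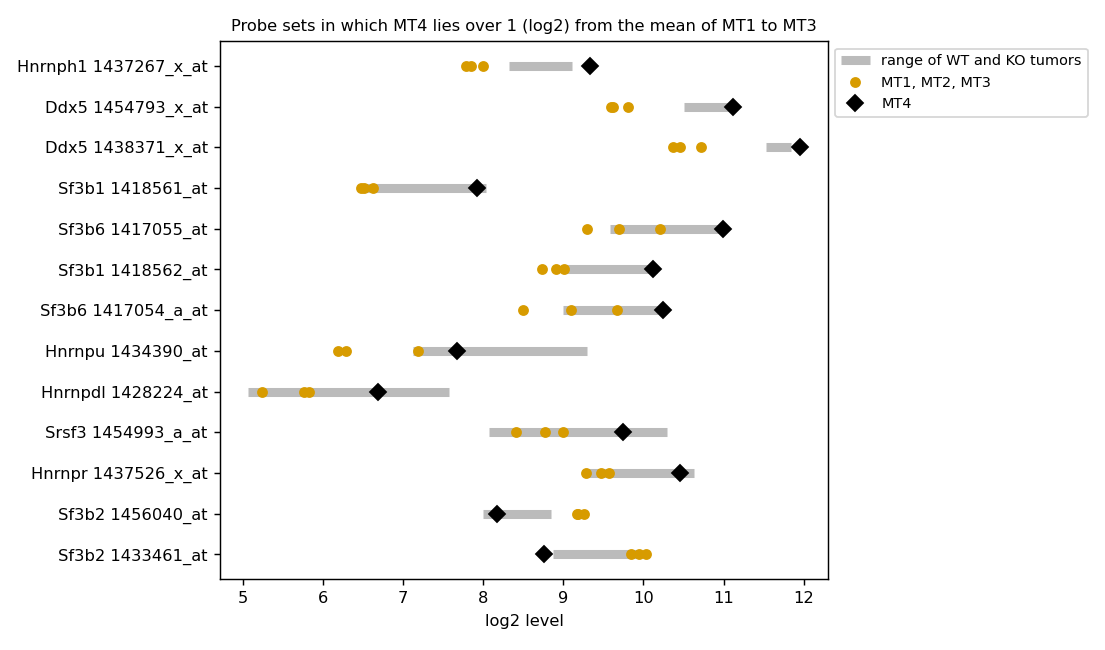
Log2 levels of MT1, MT2 and MT3 (orange points) and MT4 (black diamonds) for the 13 probe sets in which MT4 differed from the mean of the others by more than 1, with the range of the 8 WT and KO tumors as grey bars. In Ddx5 1438371_x_at and 1454793_x_at, in Hnrnph1 and in Sf3b1 1418562_at the orange points lie below the grey bar, and in Sf3b2 1456040_at above it. MT4 lies just above the bar in both Ddx5 probe sets, in Hnrnph1, at 9.33, and in both Sf3b6 probe sets. In Sf3b2 1433461_at it lies just below the bar.

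Genes of SF3B were among those with the largest differences. Sf3b1 1418561_at was at 6.62, 6.51 and 6.47 in MT1 to MT3 and at 7.92 in MT4, a difference of 1.39, and its sister 1418562_at differed by 1.24. Sf3b6, which sits at the branch site, differed by 1.26 in 1417055_at and 1.16 in 1417054_a_at. Sf3b2, which binds RNA beside the branch site, went the other way in 3 of its 4 probe sets, at 9.85, 10.03 and 9.95 in MT1 to MT3 and 8.76 in MT4 for 1433461_at (-1.19), by -1.03 in 1456040_at and by -0.94 in 1456352_a_at. Its sister 1438637_x_at differed by 0.03, so that MT4 stood apart in some Sf3b2 probe sets and not in others.

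Hnrnph1, which binds runs of G near regulated exons, was at 8.0, 7.85 and 7.78 in MT1 to MT3 and at 9.33 in MT4 in 1437267_x_at, a difference of 1.45. The WT and KO tumors were at 8.32 to 8.77 and 8.75 to 9.11 there, between the MT1 to MT3 values and that of MT4. The x_at probe sets of Ddx5 differed by 1.45 (1454793_x_at), 1.44 (1438371_x_at) and 0.86 (1433810_x_at). Hnrnpu 1434390_at, Hnrnpdl 1428224_at, Srsf3 1454993_a_at and Hnrnpr 1437526_x_at differed by 1.11, 1.09, 1.02 and 1.01. The smallest differences were 0.03 in Sf3b2 1438637_x_at, -0.01 in Srsf10 1449121_at and in Srsf1 1452430_s_at, and -0.04 in Hnrnpab 1431349_at. Of the 19 x_at probe sets 15 were higher in MT4, with a median of 0.50, and 4 (21.1%) were past 1, while over all 1512 x_at probe sets on the array 57.9% were higher, the median was 0.06 and 8.13% were past 1. Of the 61 probe sets ending in plain at, 7 (11.5%) were past 1, against 5.36% on the array. Of 31 a_at probe sets 2 (6.45%) were, against 8.54%, and of 13 s_at probe sets 0, against 8.44%. MT4 also differed from MT1 to MT3 in the poly-A controls, in the hybridization controls (10.04 against 8.88 to 9.17) and in 18S ribosomal RNA (7.66 against 6.41 to 6.59), and the tumor and these measures cannot be told apart.

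Within genotypes the splicing genes shared an order of tumors. WT2 was the lowest WT tumor in 92 of the 124 probe sets (74.2%), against 31% of all tested probe sets, and WT1 the highest in 59 (47.6%), against 24%. WT2 stood low, for example, in Hnrnpdl, with 1424252_at at 9.70, 8.38, 9.64 and 9.74 in WT tumors, and in Srsf10, an SR protein that represses splicing when dephosphorylated, with 1418526_at at 8.80, 7.09, 8.72 and 8.62. In both WT2 lay more than a log2 unit below the other WT tumors, which were close together. MT2 was the lowest MT tumor in 53 (42.7%), against 24.5%, and MT4 the highest in 59 (47.6%), against 27.7%. Among KO tumors KO2 was the lowest in 47 (37.9%), against 20.9%, and KO4 the highest in 45 (36.3%), against 26%. The median level of the 124 probe sets was 9.76, 9.28, 9.66 and 9.55 in WT tumors, 9.50, 9.16, 9.34 and 9.77 in KO tumors and 9.38, 9.17, 9.27 and 9.44 in MT tumors. The median over all tested probe sets stayed between 6.85 and 6.97. WT1, KO1, KO4 and MT4, which held the highest hybridization controls, also held the highest or next highest median of their genotype, and the part of these controls in the order was not tested.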

How the data were processed

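Levels of 12 tumors, 1 Affymetrix mouse array each, were used as deposited log2 values. By the study's methods the authors made them by RMA (perfect-match probes with background correction, quantile normalization and median polish). RMA and MAS5 are both listed in the submitters' processing notes, with no version and no word on which gave this table. No step was added, and 64 control probe sets were left out.

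Symbols came from GEO's platform annotation, in which 691 probe sets have several symbols and 1555 none. The 7 of the former with the symbol of a member among them were left out. All 124 members matched RefSeq (GRCm38.p6) by Entrez ID. The 2 Trp53 probe sets are named by a supplementary table of the study. Sequences are RefSeq's.

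A linear model per probe set, with a mean for each genotype, used all 12 tumors (limma 3.58.1, R 4.3.3; 9 residual degrees of freedom before moderation by eBayes), 2-sided, with Benjamini-Hochberg adjustment over 22626 probe sets, or over 7987 sister pairs, and a threshold of 0.05. Figures used Python 3.11.15 and matplotlib 3.10.9. The steps were tested on simulated data. Members and lists were chosen with earlier results of these data known. Probe sets named are those called, the 8 smallest p where fewer passed, genes with called or widest sister differences, the 8 largest and 4 smallest MT4 differences, and the main genes of each role. Others, such as those that show the order of tumors within genotypes, were chosen after their values were seen.

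Same-numbered tumors of different genotypes correlated above 0.1 in 6 of 12 pairs (0.002 to 0.335). Differently numbered tumors were not set beside them, so these values cannot show whether the numbers pair tumors. The numbers were taken as replicate labels and not as pairing tumors. The settings varied were the removal of dim probe sets, centering, cyclic loess, fits to the 8 tumors compared, trend with robust moderation, array weights, a replicate block, a poly-A block, a threshold of 0.10, an ordinary t statistic, 1 probe set per gene, and each tumor left out.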

Additional observations from a re-analysis of the deposited data

Results flagged for a closer look

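Of 87 groups of 4 tumors, over the 29 probe sets with a call, one of the 8 smallest p of a comparison or one of the 8 largest MT4 differences, 13 held a tumor far from the other 3 by Dixon's ratio, where chance flags about 1 in 20 groups. These probe sets were partly chosen for their MT4 differences or small p, so their count is not to be read against that share. MT4 was such a tumor in 4 of them. It was high in Ddx5 1454793_x_at (11.12), Hnrnph1 1437267_x_at (9.33) and Sf3b1 1418561_at (7.92) and low in Sf3b2 1433461_at (8.76). KO4 was low in 2 of the 3 x_at probe sets of Ddx5, at 11.56 in 1438371_x_at and 10.58 in 1454793_x_at, where the other KO tumors were within 0.02 of each other, and high in Hnrnpa2b1 1433830_at (10.85). WT2 was low in Ddx5 1454793_x_at (10.51) and in Srsf1 1428099_a_at (10.60). Hnrnpab 1426114_at was high in WT4 (11.47) and in KO2 (11.53). KO1 was high in Sf3b1 1418561_at (7.51), where the other KO tumors were at 6.45 to 6.62. WT4 was low in Sf3b5 1439370_x_at (4.23), the dim probe set called between WT and KO tumors. The cause of these values was not tested.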

How the results depend on the processing

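No called probe set changed direction in the alternatives run. Luc7l2 1436766_at kept its call in 20 of 22, losing it without WT1 and with the ordinary t statistic, and the other 6 in 10 to 16. The threshold of 0.10 cannot end a call, so it adds nothing to these numbers. For WT minus KO the poly-A block gives the same fit as leaving out MT4, so 1 setting is counted under 2 names. The 7 member calls of WT minus KO became 2 with the 8 tumors compared, 16 with array weights, 12 at a threshold of 0.10, 0 with the ordinary t statistic and 0 with 1 probe set per gene. With single tumors left out they ranged from 0 to 9, at 0 without WT1, 1 without WT3, 2 without KO3 or KO4, 3 without KO1 or KO2 and 4 without MT3. The 0 of MT minus KO became 2 with array weights and 10 without MT4 (1.04% of all), with a range from 0 to 10. The 0 of MT minus WT became 44 with array weights (22.0% of all probe sets) and 1 at 0.10 (2.73%), with a range from 0 to 7, at 1 without WT4 and 7 without MT4.

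The 5 sister pairs of WT minus KO became 1 with the 8 tumors compared, 13 with array weights (15.4% of all pairs), 8 with the poly-A block, 11 at 0.10 and 0 with the ordinary t statistic. Their range was 1 to 8, at 1 without WT2, 2 without WT1, WT3, KO2 or KO4, 3 without KO3 or MT3 and 8 without MT4. The 10 pairs of MT minus KO became 3, 30 and 0 under the first 3 of these (2.09%, 23.5% and 0.0125% of all) and 0 with the ordinary t statistic. Their range was 0 to 24, at 0 without KO4, MT1, MT2 or MT3, 1 without KO2, 4 without WT3 or KO1, 6 without WT1 or KO3 and 24 without MT4. The 0 pairs of MT minus WT became 34 with array weights, 2 at 0.10 and 17 without MT4, where 40.3%, 8.76% and 16.4% of all pairs passed, with a range from 0 to 17. A replicate block gave 8, 0 and 0 member calls and 3, 8 and 0 sister pairs in the order WT minus KO, MT minus KO, MT minus WT, and ended the call of Luc7l3 1451485_at. The 13 probe sets in which MT4 stood apart became 50 at a limit of 0.5. The poly-A block leaves MT4 as the only informative MT tumor and assumes that it varies like the others. The cause of these changes was not tested, and 4 arrays per genotype limit all counts.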
